A study of Mus musculus with 22 samples.

Results

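RNAs recovered with the J2 antibody were compared with total RNA in fetal liver of normal mice, gene by gene and by class of gene. J2 is a monoclonal antibody against double-stranded RNA, and the pull-down followed by sequencing is called RNA immunoprecipitation. The comparison took 4 of the 22 samples of the study, 2 libraries of J2-bound RNA (J2) and 2 of unselected RNA (INPUT), chosen by their labels. The count table listed 52459 genes with a gene_biotype, the annotation's class of each gene. Of these, 14657 passed the low-count filter and were tested, 37802 did not, and 30276 had no count in any of the 4 libraries.

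The study set livers lacking the RNA methyltransferase Mettl3 in blood cells against normal livers. The normal animals (WT) were Mettl3fl/fl mice without Vav-Cre at E14.5, a stage at which the fetal liver is the main site of blood formation. Their counterparts (KO) were Vav-Cre Mettl3fl/fl livers of the same age, 2 J2 and 2 INPUT libraries, used here for the comparison at the end and, in the fit, to share the estimate of spread. Vav-Cre acts in blood-forming cells, so hepatocytes of the KO liver keep Mettl3, and the floxed allele was carried by both groups. INPUT RNA came from a piece of each liver dissolved directly in TRIzol. The other piece was lysed in dsRIP buffer and incubated with 5 ug of SCICONS J2, so the 2 kinds of library also differ in the piece of tissue and in the lysis. No pull-down with another antibody or with beads alone was analysed here, so binding by J2 and carry-over on the beads cannot be told apart.

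Double-stranded RNA forms where a transcript folds back on itself, as between inverted repeats, or where RNAs from opposite strands of a locus pair. Long duplexes are normally edited by ADAR, or kept in the nucleus or in mitochondria, and when they reach the cytosol they are sensed by proteins such as MDA5 and PKR. J2 is known to need a duplex of some length and to read its shape rather than its sequence, and short hairpins are poor targets.

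The 4 libraries held 3100910 and 3178981 counts (INPUT) and 4017500 and 3873688 counts (J2). Levels are given in CPM, a gene's count scaled to the size of its library, with trimmed-mean (TMM) scaling, always INPUT replicate 1 and 2, then J2 replicate 1 and 2, and they are compared between libraries, never between genes. Red-cell genes such as Hbb-bt and liver genes such as Alb were abundant in INPUT, while Ckm of muscle, Sftpc of lung and Umod of kidney were at or near 0 in all 4 libraries, and Rbfox3 of neurons reached 11.2 CPM in INPUT replicate 1. Xist, expressed in females, was at 912 and 4.50 CPM in INPUT and 704 and 0 CPM in J2, so its level followed the replicate number in both kinds of library. Col1a1, a connective tissue collagen, was at 688 and 171 CPM in INPUT, an uneven content of connective tissue between the 2 INPUT libraries whose part in the results was not tested.

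J2 libraries differed from INPUT at 3503 of 14657 tested genes (23.9%), of which 1937 were higher (13.2%) and 1566 lower (10.7%) in J2 (edgeR, quasi-likelihood test, Benjamini-Hochberg adjusted p under 0.05). With libraries scaled by their size alone, without TMM, 2910 genes were higher and 998 lower, and the median log2 fold change of all genes was 0.52 where it had been 0.10. Fold changes are therefore read against the other genes and are not absolute amounts bound. Without J2 replicate 1 the test called 2188 genes, and without J2 replicate 2 it called 1826. Among the 1937 higher genes, 131 had no INPUT count, and among the 1566 lower genes 18 had no J2 count.

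The classes of RNA took different shares of the 2 kinds of library. Protein-coding genes took 54.8% and 53.5% of INPUT counts and 79.6% and 77.2% of J2 counts. Loci annotated as miRNA took 20.01% and 21.1% of INPUT counts and 3.51% and 3.36% of J2 counts, nearly all at a single locus, Gm23935, with 19.1% and 20.1% of INPUT and 3.30% and 3.16% of J2. Long intergenic noncoding RNAs (lincRNA) held 15.8% and 15.9% of INPUT and 8.68% and 10.8% of J2. This direction turned when mitochondrial genes and loci overlapping ribosomal RNA repeats were left out (log2 ratio of the shares -0.70 with them, 1.94 without). The lincRNA loci left out held most of the INPUT share of the class. Gm42418 took 8.74% and 9.02% of INPUT counts and Gm26917 5.83% and 5.79%. Counting error of these shares was at most 0.0554 percentage points (95% Wilson interval), and it covers counting only. Exact permutation of 2 against 2 libraries cannot give a p below 0.3333, so no test is given for shares.

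**Figure D1:**
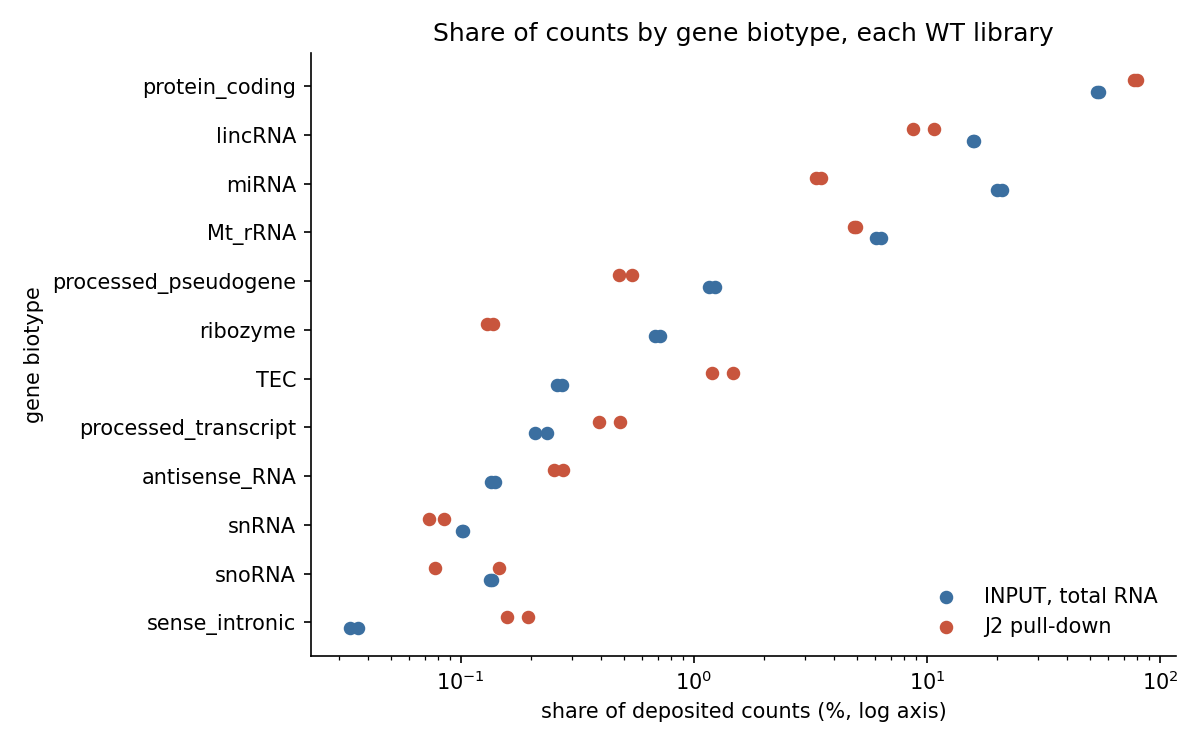
Share of all counts held by each gene_biotype (percent, log axis) in each of the 4 WT libraries, blue for INPUT and red for J2. Loci annotated as TEC and sense_intronic held a larger share in both J2 libraries, and miRNA, ribozyme and processed_pseudogene loci a smaller one.

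Among mitochondrial mRNAs the one read from the minus strand stood far above those of the plus strand, a contrast singled out after the values were seen. Mitochondrial DNA is transcribed from both strands over nearly its whole length, and mt-Nd6, which encodes a subunit of complex I, is the one mRNA read from the light strand, the minus strand in the deposited table (start at chrM position 14070). It was at 153 and 134 CPM in INPUT and 2477 and 2412 CPM in J2. Both J2 libraries were far above both INPUT libraries (log2 fold change 4.09, SE 0.16, adjusted p = 1.75e-07), a 17.1-fold difference that also held with each library left out. mt-Nd5, a complex I subunit mRNA whose end overlaps mt-Nd6 on the opposite strand, was at 1559 and 1522 CPM in INPUT and 3025 and 2436 CPM in J2 (log2 fold change 0.83, adjusted p = 0.00387).

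The remaining 7 tested plus-strand mRNAs with a deposited start lay between -1.06 and -0.16 on the log2 scale, and 3 of them were called lower. Some had few counts, with an SE of up to 0.89. The value of -0.16 was among these (SE 0.81, not called). mt-Nd4 went from 951 and 1219 CPM to 562 and 480.2 CPM (log2 fold change -1.06, SE 0.18, adjusted p = 0.00142) and mt-Cytb from 2122 and 2359.9 CPM to 1573 and 1309 CPM (log2 fold change -0.64, SE 0.14, adjusted p = 0.00775, not called without J2 replicate 2 or under library size alone, where it was -0.21 with adjusted p = 0.333). The mRNA of mt-Nd1, whose start position was not used here, had a log2 fold change of -0.05 (adjusted p = 0.845). Of 13 mitochondrial mRNAs, 10 were tested, 2 were higher and 3 lower, with a median of -0.40 that became 0.02 under library size alone. Both mitochondrial ribosomal RNAs were lower, mt-Rnr2 from 43180.3 and 49740.0 CPM to 23542 and 26804 CPM (log2 fold change -0.88, SE 0.10, adjusted p = 9.18e-05) and mt-Rnr1 with a log2 fold change of -0.56 (adjusted p = 0.00118), which was -0.14 (adjusted p = 0.149) under library size alone. Among 22 mitochondrial tRNAs 6 were tested, and the minus-strand mt-Tp was higher (1.93 and 3.68 CPM in INPUT, 14.2 and 25.4 CPM in J2, log2 fold change 2.81, adjusted p = 0.0441), a call that was lost without either J2 library, without INPUT replicate 1, and with the replicate block (adjusted p = 0.0742). Tested tRNAs with a deposited strand had positive values on both strands, from few counts. The minus-strand mt-Tq had a log2 fold change of 0.22, and the plus-strand mt-Tm 0.72 and mt-Tt 3.16. mt-Ti, also on the plus strand, had no INPUT count and 1 and 11 counts in J2. None of these 4 was called. The tRNA mt-Tv, whose strand was not used here, had 20 and 15 counts in INPUT and 7 and 6 in J2. It went the other way and was not called (log2 fold change -2.15, adjusted p = 0.145). Whether reads were counted by strand is not given in the sources used here. If they were not, reads of the plus-strand precursor over mt-Nd6 would be counted there too, so these values do not tell which strand the RNA came from.

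**Figure D2:**
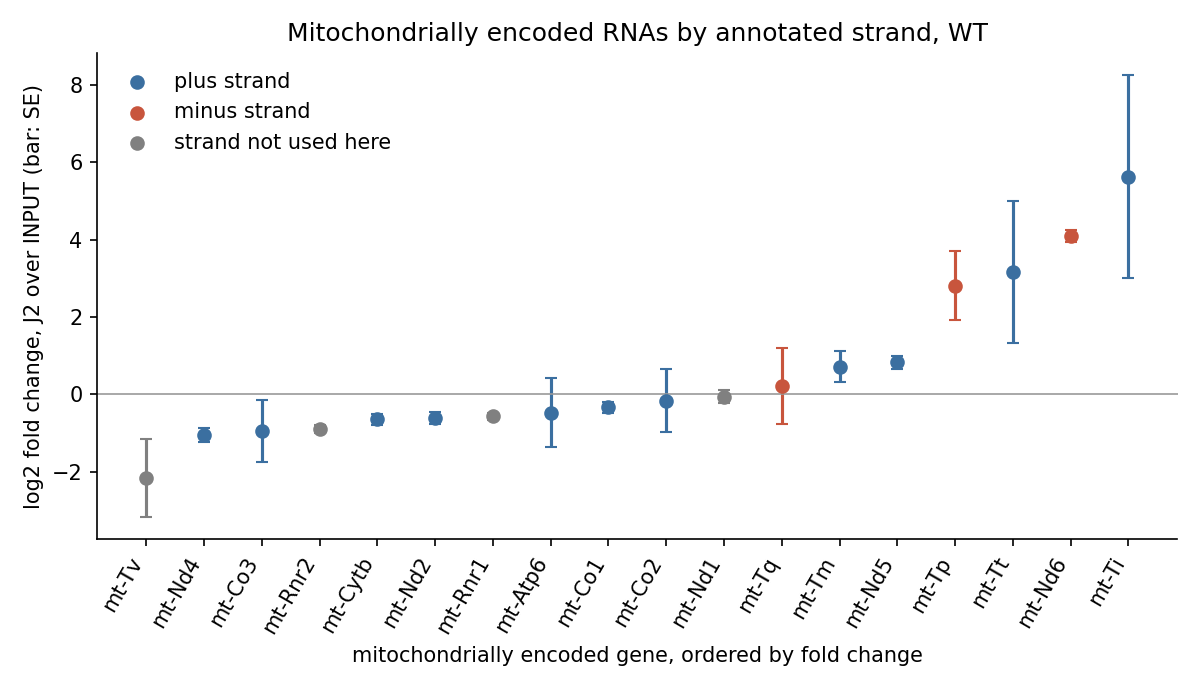
Log2 fold change J2 over INPUT in WT (vertical axis, bars are 1 SE) of the tested mitochondrial genes, ordered by fold change, blue for the plus and red for the minus strand as deposited, grey where the strand was not used. Among mRNAs mt-Nd6, on the minus strand, lies highest at 4.09 and most plus-strand mRNAs lie below 0, some of them with long bars. The tRNAs with a strand shown lie above 0 with long bars, and mt-Tv, a tRNA in grey, lies lowest of all genes shown at -2.15. The fitted value of mt-Ti, which has no INPUT count, is no bound. The median of the 10 tested mRNAs moves from -0.40 to 0.02 under library size alone.

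Several long noncoding RNAs were among the most abundant RNAs of the J2 libraries. H19, an imprinted noncoding RNA that also hosts a miRNA (start at chr7 position 142578143, minus strand), was at 5098 and 5235 CPM in INPUT and 29522 and 23348 CPM in J2. It took 0.426% and 0.403% of INPUT counts and 3.31% and 2.39% of J2 counts. Both J2 libraries lay above both INPUT libraries (log2 fold change 2.36, SE 0.12, adjusted p = 9.87e-07). Igf2, the imprinted growth factor gene beside it, was at 7710.3 and 7046 CPM in INPUT and 8479 and 9502 CPM in J2 (log2 fold change 0.29, adjusted p = 0.0725). The Igf2 groups did not overlap, and the call depended on the fit: adjusted p = 0.0406 with the replicate block, and 0.70 on the log2 scale and called under library size alone.

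Malat1, a nuclear speckle RNA, was at 4929 and 5436 CPM in INPUT and 10849.8 and 14700.1 CPM in J2 (log2 fold change 1.30, SE 0.13, adjusted p = 5.15e-05). 2900097C17Rik, the mouse Norad RNA that binds Pumilio proteins, showed a wider gap, 64.9 and 55.6 CPM against 992 and 902 CPM (log2 fold change 3.97, SE 0.19, adjusted p = 6.24e-07). Tug1 went from 47.9 and 48.2 CPM to 465 and 431 CPM (log2 fold change 3.22, SE 0.33, adjusted p = 4.88e-05), and Dleu2, host of the miR-15a and miR-16 cluster, from 176 and 258 CPM to 640.5 and 1240.3 CPM (log2 fold change 2.12, SE 0.31, adjusted p = 0.000517). In each of these 4 RNAs both J2 libraries were above both INPUT libraries, a description of genes named for their level or their call.

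Not every long noncoding RNA was recovered in the same way. Neat1, the scaffold of paraspeckles, was at 204 and 189.6 CPM in INPUT and 103 and 169 CPM in J2 (log2 fold change -0.53, adjusted p = 0.146), so the direction was downward but not called, except without J2 replicate 2. Kcnq1ot1, the noncoding RNA that silences the neighbouring imprinted domain, was higher (521 and 507 CPM against 698 and 927 CPM, log2 fold change 0.66, adjusted p = 0.0279), and lost the call without J2 replicate 2 or either INPUT library. Meg3 was at 1192 and 963 CPM and 1182 and 1428 CPM and was not called (log2 fold change 0.28, adjusted p = 0.271). In the list of 21 long noncoding RNAs, all tested, 6 were higher (28.6%, against 13.2% over all genes) and 0 lower. The median was 0.41 against 0.10 over all genes tested.

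**Figure D3:**
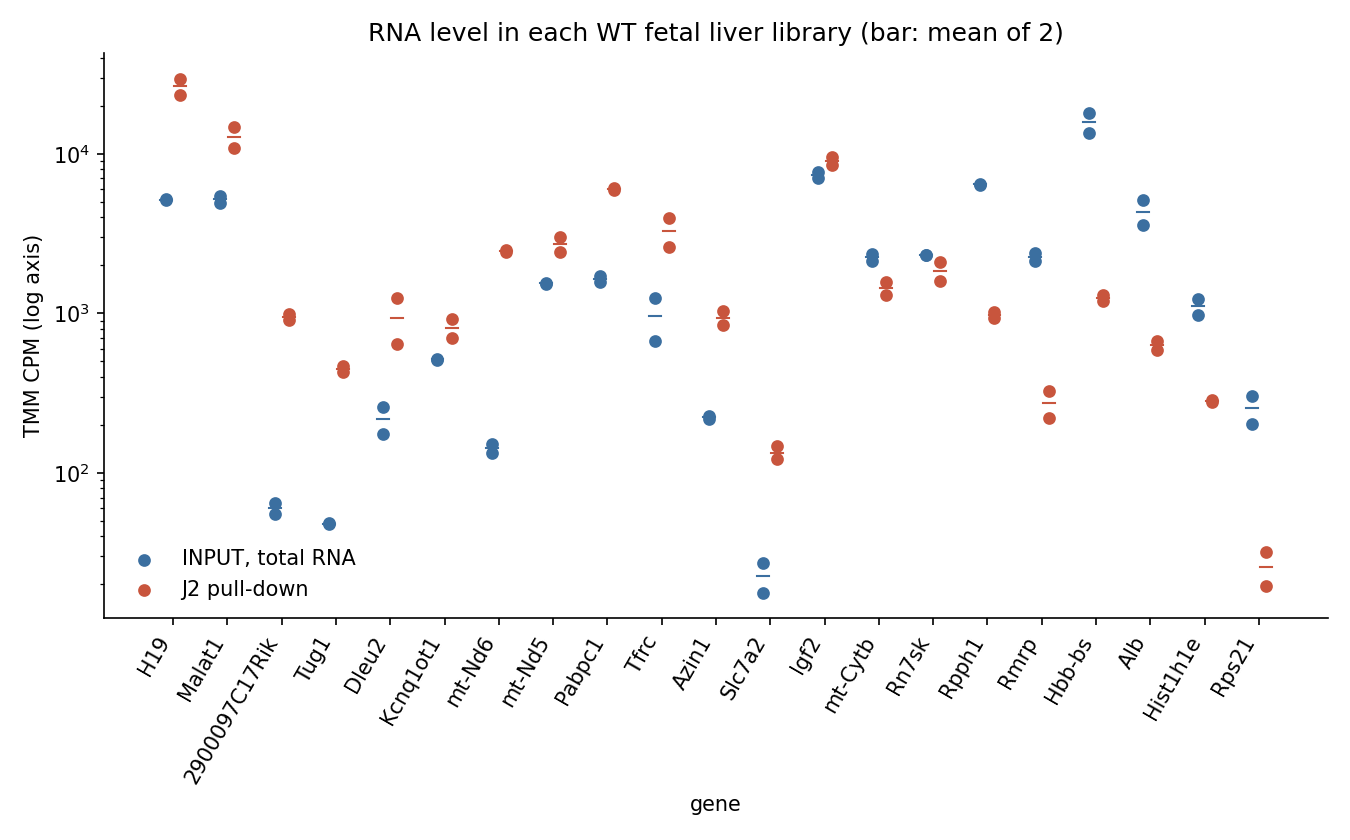
Level in TMM-scaled CPM (vertical log axis) of named RNAs in the 4 WT libraries, blue for INPUT and red for J2, 1 point per library and a short bar at the mean of 2. H19, Malat1, 2900097C17Rik, Tug1, mt-Nd6, Azin1 and Pabpc1 lie higher in J2, and Hbb-bs, Alb, Rpph1 and Rmrp lower.

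Loci of the classes TEC and sense_intronic took larger shares of the J2 libraries. The class sense_intronic holds noncoding transcripts lying in an intron on the strand of the surrounding gene, and TEC holds provisional single-exon loci still awaiting experimental proof. TEC loci took 0.259% and 0.272% of INPUT counts and 1.20% and 1.48% of J2 counts, and sense_intronic loci 0.0335% and 0.0361% against 0.158% and 0.194%. Of 3012 TEC loci 778 were tested, with 164 higher (21.1%, against 13.2% over all genes) and 0 lower. Their median log2 fold change was 2.28, or 1.99 with loci absent from INPUT set at their lower bound. Of 307 sense_intronic loci 128 were tested, with 28 higher (21.9%), 0 lower and a median of 2.60, or 2.24 with such bounds. Many entered the test through J2 alone: 296 TEC and 55 sense_intronic loci had at least 10 counts in both J2 libraries and fewer than 10 in both INPUT libraries, so these counts and medians are a description. With at least 10 counts in both INPUT libraries required, a condition chosen after seeing the data, 119 TEC loci remained with 40 higher (33.6%), 0 lower and a median of 1.40. Under the same condition 16 sense_intronic loci remained with 3 higher (18.8%), 0 lower and a median of 0.88. Over the 9651 genes that met the condition 1532 were higher (15.9%) and the median was -0.15, so the share of sense_intronic loci called higher was near that of all genes.

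Most of these loci lay within a tested protein-coding gene on the same strand, 120 of 128 tested sense_intronic loci (93.8%) and 639 of 778 tested TEC loci (82.1%). Loci were set against these genes only where they had at least 10 counts in both INPUT libraries. Of 105 such TEC loci 78 had a higher fold change than the surrounding gene, with a median of 1.43 for the loci and 0.66 for the 90 genes. Of 16 such sense_intronic loci 11 did, with medians of 0.88 and 0.35 (15 genes). Gm37527, the TEC locus with the highest level in J2 (start at chr6 position 41696186, minus strand), was at 117 and 178 CPM in INPUT and 588 and 936 CPM in J2 (log2 fold change 2.37, SE 0.41, adjusted p = 0.00155). It lies in Kel, the gene of the Kell blood group protein, which was at 463 and 661 CPM in INPUT and 201 and 347 CPM in J2, the opposite direction (log2 fold change -1.04, adjusted p = 0.0228, not called without J2 replicate 1 or INPUT replicate 2, or under library size alone, where it was -0.62 with adjusted p = 0.107).

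Further examples were picked after their values were seen. Inside Picalm, a clathrin assembly gene, 4 TEC loci were higher: Gm45220 by 2.96, Gm45221 by 1.07, Gm45222 by 1.99 and Gm45223 by 2.80 on the log2 scale, against 0.75 (adjusted p = 0.0369) for Picalm itself. The calls of Picalm and Gm45221 were each lost in 3 of the 4 fits that left out 1 library, and the other 3 loci kept theirs. The most abundant sense_intronic locus in J2, Gm37529 in Rabgap1l, was at 18.5 and 11.0 CPM and 55.5 and 83.9 CPM (log2 fold change 2.23, adjusted p = 0.0127, not called without J2 replicate 2), with Rabgap1l at 0.53 (adjusted p = 0.0935). Gm44694, in Akap13, had no INPUT count and 12.7 and 35.5 CPM in J2. It was at least 39.2-fold higher against a floor of 3 counts over the group. Without 10 counts in both INPUT libraries it misses the condition used above, so this value is a description. Akap13 had a log2 fold change of 0.50 (adjusted p = 0.0652), and was called with the replicate block (adjusted p = 0.0464). The tested processed pseudogenes, retrotransposed copies of mRNAs, went the other way as a class. Over 565 of 8610 listed, 10 were higher (1.77%) and 118 lower (20.9%), against 13.2% and 10.7% over all genes. Their median was -1.25, though their counts can include reads of the parent mRNA.

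By position, the median of tested pseudogenes was 0.79 for those inside a protein-coding gene on its own strand (139 tested of 669, 7 higher, 14 lower), -2.37 for those on the opposite strand (69 of 1184, 0 higher, 29 lower) and -1.52 for those outside (356 of 6751, 3 higher, 75 lower). Summed over every listed locus without a filter, J2 over INPUT CPM was 0.62, 0.18 and 0.32 in the same order. The summed counts of all 3 kinds were thus lower in J2. No minimum of INPUT counts was required for the medians. Of the 565 tested pseudogenes, 59 had at least 10 counts in both J2 libraries and fewer than 10 in both INPUT libraries. The medians are therefore a description. The loci furthest below INPUT were Gm11966, at least 104-fold lower (adjusted p = 0.000104), and Gm4459, at least 83.0-fold lower (adjusted p = 0.000496), neither with a J2 count. Summed TEC loci, also without a filter, had a ratio of 3.83 inside a gene on the same strand and 3.77 outside genes. Medians were 2.21 (637 tested) and 2.56 (102 tested). Many of these loci entered the test through J2 alone, so the medians are a description.

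Of 21926 protein-coding genes 12270 were tested, with 1650 higher (13.4%) and 1398 lower (11.4%), near the 13.2% and 10.7% over all genes. Protein-coding genes make up most of the tested genes, so TMM scaling itself places their median near 0 (0.01, and 0.43 under library size alone). Pabpc1, the cytoplasmic poly(A)-binding protein, was at 1577 and 1706 CPM in INPUT and 5967 and 6081 CPM in J2 (log2 fold change 1.88, SE 0.12, adjusted p = 2.52e-06). Azin1, the antizyme inhibitor whose mRNA is a known editing target of ADAR, went from 219 and 228 CPM to 839 and 1029.5 CPM (log2 fold change 2.06, SE 0.17, adjusted p = 1.69e-05). Slc7a2, the cationic amino acid transporter gene known for a nuclear-retained, edited transcript with inverted repeats, went from 17.8 and 27.4 CPM to 121 and 147 CPM (log2 fold change 2.57, SE 0.30, adjusted p = 0.000112). For all 3 genes the J2 libraries were above the INPUT libraries without overlap. The genes were named for their level or their call, so this separation is a description.

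Known ADAR targets did not move together. Of 14 listed, 13 were tested, 4 were higher (30.8%) and 3 lower (23.1%), against 13.2% and 10.7% over all genes. The median was -0.57 (-0.10 under library size alone). Besides Azin1 and Slc7a2, the higher ones were Oip5 (log2 fold change 1.84, adjusted p = 0.0246) and Optn (0.93, adjusted p = 0.0434), and the lower ones included Klf1 (-1.11, adjusted p = 0.00253) and Copa (-0.96, adjusted p = 0.0200). Oip5, Optn and Copa each lost the call in 3 of the 4 fits that left out 1 library, and Copa also under library size alone (-0.55, adjusted p = 0.155). mRNAs for proteins that bind or sense double-stranded RNA had few calls, with 2 higher (7.41%) and 1 lower (3.70%) of 27 tested of 30 against 13.2% and 10.7%, and 5 higher and 1 lower with the replicate block. The list had a median of -0.28 that turned to 0.08 under library size alone. Strbp, a protein with double-stranded RNA binding domains, was higher (log2 fold change 1.27, adjusted p = 0.00906, not called without J2 replicate 2), and the helicase Dhx9 was lower (-0.86, adjusted p = 0.0112, not called without J2 replicate 1 or under library size alone).

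Red-cell mRNAs went both ways. Tfrc, the transferrin receptor whose mRNA carries iron-responsive stem-loops, was at 672 and 1249 CPM in INPUT and 2598 and 3939 CPM in J2 (log2 fold change 1.77, SE 0.28, adjusted p = 0.000905). Slc4a1, the anion exchanger of the red-cell membrane, went from 2728 and 3423 CPM to 5502 and 6455 CPM (log2 fold change 0.96, SE 0.15, adjusted p = 0.000682), and Slc25a37, mitoferrin, had a log2 fold change of 1.01 (adjusted p = 0.00128). The globin mRNAs lay far below: Hbb-bs was at 13536 and 17919.5 CPM in INPUT and 1203 and 1303 CPM in J2 (log2 fold change -3.65, SE 0.22, adjusted p = 2.39e-06). Urod, an enzyme of haem synthesis, was lower too (-1.77 on the log2 scale), as was Klf1, the red-cell transcription factor (239 and 259.5 CPM against 105 and 126 CPM, log2 fold change -1.11, adjusted p = 0.00253). Over 29 tested erythroid genes 6 were higher (20.7%) and 11 lower (37.9%), against 13.2% and 10.7% over all genes. Their median was -0.09 and became 0.32 under library size alone. Over 9 tested of 10 globin genes 0 were higher and 5 lower (55.6%), with a median of -1.83. Near-identical globin copies can share reads, so the values of single globin genes are uncertain.

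Among mRNAs of zinc finger proteins and of the m6A machinery more were called higher than lower. These lists were not tested against other genes, and no minimum of INPUT counts was required of their members. Of 394 numbered zinc finger genes, 319 were tested, 69 were higher (21.6%, against 13.2% over all genes) and 3 lower, with a median of 0.92 (0.85 with bounds) against 0.10 over all genes. Zfp652 was at 84.6 and 92.8 CPM in INPUT and 525 and 504 CPM in J2 (log2 fold change 2.54, SE 0.18, adjusted p = 6.59e-06), with Zfp91 at 1.81 and Zfp106 at 1.34 on the log2 scale. Among 19 genes of m6A writers, readers and erasers, all tested, 9 were higher (47.4%) and 0 lower, with a median of 0.94. Alkbh5, an m6A demethylase, went from 73.4 and 129 CPM to 372 and 340.0 CPM (log2 fold change 1.82, SE 0.26, adjusted p = 0.000464), Igf2bp1, an m6A reader, from 126 and 113 CPM to 471 and 342 CPM (log2 fold change 1.77, SE 0.26, adjusted p = 0.000591), and Rbm15, a subunit of the writer complex, had a log2 fold change of 1.36 (adjusted p = 0.00140). Mettl3 itself, the methyltransferase, was at 29.4 and 24.9 CPM and 25.5 and 30.2 CPM (log2 fold change 0.04, adjusted p = 0.971).

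Splicing factor mRNAs were split, with 8 higher and 6 lower of 32 tested and a median of -0.02 (0.39 under library size alone). Son, a speckle protein, was higher (595 and 581 CPM against 1203 and 1314 CPM, log2 fold change 1.10, SE 0.14, adjusted p = 0.000254), as were Srsf1 (1.56 on the log2 scale) and Tra2a (1.68). Srsf2 was lower, from 209 and 213 CPM to 78.1 and 70.3 CPM (log2 fold change -1.51, SE 0.22, adjusted p = 0.000530). Of 25 very long coding genes 6 were higher and 2 lower, among them the transcription factor gene Mga at 1.65 (adjusted p = 0.000186) and the lipoprotein receptor gene Lrp1 at -1.24 (adjusted p = 0.000813). Of 22 immediate early genes 16 were tested, with 1 higher and 1 lower (6.25% each, below the shares over all genes) and a median of -0.31. The higher one was Klf6, a zinc finger transcription factor, at 14.3 and 15.5 CPM and 87.7 and 82.9 CPM (log2 fold change 2.51, adjusted p = 0.000133), and the lower one Jun, an AP-1 subunit (-2.88, adjusted p = 0.0138, not called without J2 replicate 2).

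The genomic span of a protein-coding gene went with its recovery. In 5 groups of near-equal size by span (RefSeq), from 0.309 to 8.75 kb in the shortest to 72.9 to 2390 kb in the longest, the median log2 fold change was -0.93, -0.27, 0.04, 0.32 and 0.52. The shortest group held 108 higher and 626 lower genes, and the longest 510 higher and 62 lower. Spearman's rho was 0.329 over 12214 genes, a description with no p, since all genes share the 4 libraries. The median level also differed between the groups, 13.6 CPM in the shortest and 26.1 CPM in the longest, and its part in the result was not tested. Genes whose span overlaps another gene on the opposite strand had a median of 0.10 (3563 genes) against -0.03 for the rest (8651 genes). Their spans were longer, with a median of 33.6 kb against 22.4 kb, and within span groups the order went both ways: from the shortest group to the longest the medians were -0.80, -0.19, 0.0046, 0.23 and 0.56 with such an overlap and -0.97, -0.29, 0.05, 0.35 and 0.47 without.

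**Figure D4:**
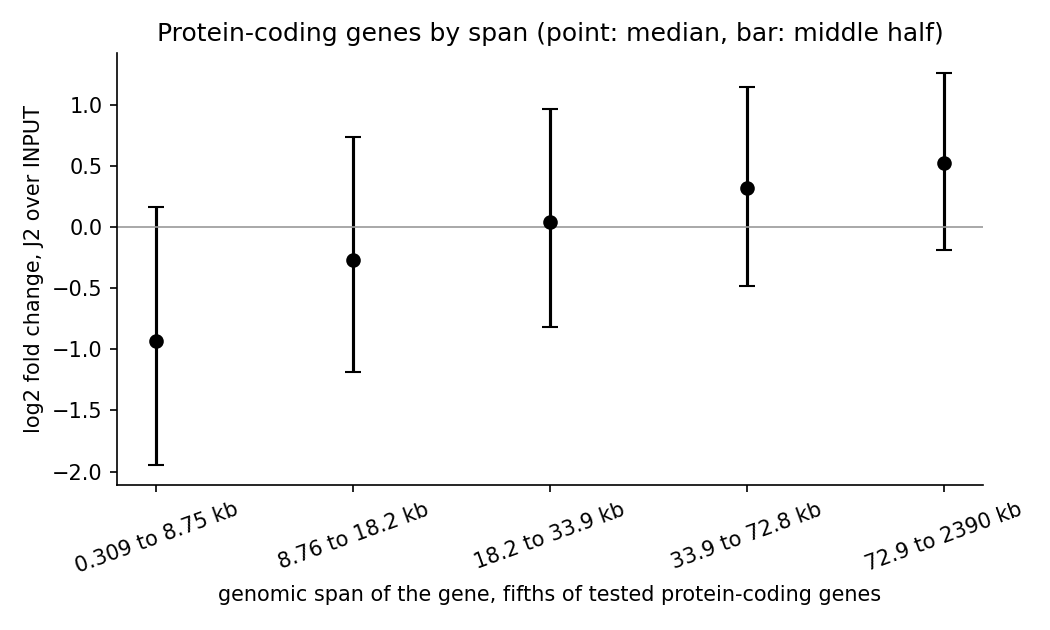
Log2 fold change J2 over INPUT of 12214 protein-coding genes in 5 groups of genomic span (kb), with a point at the median and a bar over the middle 50% of genes. Medians go from -0.93 in the shortest group to 0.52 in the longest.

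Antisense partners were compared with their sense genes. Ino80d, a subunit gene of a chromatin remodeller, was at 109.7 and 112 CPM in INPUT and 606 and 667 CPM in J2 (log2 fold change 2.52, SE 0.18, adjusted p = 7.13e-06), while its opposite-strand transcript Ino80dos was at 18.5 and 11.9 CPM and 12.7 and 18.9 CPM (log2 fold change 0.05, adjusted p = 0.975). Brip1, a DNA repair helicase gene, was higher (log2 fold change 1.49, adjusted p = 0.00864, not called without J2 replicate 2) and Brip1os was not called (0.34, adjusted p = 0.532). Igf2os was at 10.8 and 0.817 CPM in INPUT and 28.2 and 29.97 CPM in J2, with the groups apart but the INPUT libraries unlike each other, and was not called (log2 fold change 2.31, adjusted p = 0.0646) except with the replicate block (adjusted p = 0.0275), under library size alone, by DESeq2 or without INPUT replicate 1. Of 150 tested antisense_RNA genes of 2645, 12 were higher (8.0%, below the 13.2% over all genes) and 2 lower, with a median of 1.02 (0.81 with bounds), and 28 of them entered through J2 alone. Of the 28 antisense_RNA genes with at least 10 counts in both INPUT libraries, 3 were higher (10.7%) and 2 lower (7.14%), with a median of 0.26. Over all 9651 genes that met this condition 1532 were higher (15.9%) and 1545 lower, with a median of -0.15. Without a stated strand setting, reads of a sense gene and its antisense partner cannot be told apart.

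Among folded noncoding RNAs, the RNA subunits of RNase P and RNase MRP, enzymes of tRNA and rRNA processing, were lower in J2: Rpph1 was at 6412 and 6507 CPM in INPUT and 931 and 1013 CPM in J2 (log2 fold change -2.73, SE 0.16, adjusted p = 2.39e-06), and Rmrp at 2139 and 2378 CPM and 222 and 326 CPM (log2 fold change -3.04, SE 0.20, adjusted p = 3.48e-06). Rn7s2, a signal recognition particle RNA, had a log2 fold change of -2.99 (adjusted p = 0.000812). Rn7sk, the RNA that holds a transcription elongation factor inactive, was at 2336 and 2331 CPM and 2087 and 1603 CPM and was not called (log2 fold change -0.34, adjusted p = 0.148). Of 14 structured noncoding RNAs 11 were tested, 0 were higher and 4 lower (36.4%, against 10.7% over all genes). The median was -1.69.

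Most replication-dependent histone mRNAs and cytosolic ribosomal protein mRNAs were lower, and none was called higher. Of 67 replication-dependent histone genes, whose mRNAs end in a stem-loop instead of a poly(A) tail, 62 were tested. Of these 0 were higher and 53 lower (85.5%, against 10.7% over all genes), with a median of -2.76 (-2.33 under library size alone). Hist1h1e was at 975 and 1237 CPM in INPUT and 288 and 277 CPM in J2 (log2 fold change -1.97, SE 0.18, adjusted p = 2.97e-05), and Hist1h2ag at 60.6 and 151 CPM and 0.666 and 6.55 CPM (log2 fold change -4.89, SE 0.76, adjusted p = 0.000790). Of 80 cytosolic ribosomal protein genes 77 were tested, 0 were higher and 60 lower (77.9%). Their median was -1.80 (-1.37 under library size alone). Rps21 went from 304 and 203 CPM to 31.7 and 19.6 CPM (log2 fold change -3.30, SE 0.32, adjusted p = 3.64e-05), Rplp0 had a log2 fold change of -0.50 (adjusted p = 0.0483), a call lost without J2 replicate 2 or either INPUT library and under library size alone (-0.07, adjusted p = 0.812), and Rpl4 was not called (-0.35, adjusted p = 0.145). Among 78 mitochondrial ribosomal protein genes 77 were tested, and 15 were lower (19.5%) and 1 higher (1.30%, against 13.2% over all genes). Their median was -0.91.

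Several host genes of small nucleolar RNAs, whose spliced transcripts are mostly degraded, were lower. Of 19 listed 17 were tested, 0 were higher and 5 lower (29.4%, against 10.7% over all genes), with a median of -1.49. Snhg9 was at 63.3 and 58.9 CPM in INPUT and 0.444 and 1.26 CPM in J2 (log2 fold change -6.14, SE 0.81, adjusted p = 0.000263). Gas5 went from 174 and 236 CPM to 49.5 and 64.7 CPM (log2 fold change -1.85, SE 0.27, adjusted p = 0.000565), and Snhg1 had a log2 fold change of -2.28 (adjusted p = 0.00118).

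mRNAs of hepatocytes and of several blood cell types were lower. Of 31 hepatocyte genes 29 were tested, 0 were higher and 24 lower (82.8%, against 10.7% over all genes). Their median was -2.37 (-1.95 under library size alone). Alb, serum albumin, was at 3571 and 5119.5 CPM in INPUT and 672 and 587 CPM in J2 (log2 fold change -2.79, SE 0.18, adjusted p = 3.48e-06), and Afp, alpha-fetoprotein, at 4407 and 5506 CPM and 885 and 841 CPM (log2 fold change -2.52, SE 0.14, adjusted p = 1.64e-06). Trf, transferrin, had a log2 fold change of -3.41 (adjusted p = 7.13e-06), whereas Apob, the apolipoprotein of liver-made lipoproteins, was at 594 and 781 CPM and 594 and 664 CPM and was not called (-0.13, adjusted p = 0.651). Hnf4a, a hepatocyte transcription factor, was at 60.3 and 122 CPM and 146 and 144 CPM and was not called (0.67, adjusted p = 0.133) except under library size alone or without INPUT replicate 2. In bulk tissue, fewer cells of a type in the lysed piece and less RNA per cell cannot be told apart, so the part of cell content in these values was not tested.

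Of 20 macrophage and granulocyte genes 19 were tested, 1 was higher (5.26%) and 10 lower (52.6%, against 10.7% over all genes). Their median was -1.75. C1qc, a complement subunit made by macrophages, was at 44.4 and 54.4 CPM in INPUT and 3.11 and 0.756 CPM in J2 (log2 fold change -4.63, SE 0.66, adjusted p = 0.000436), Mpo, myeloperoxidase, had a log2 fold change of -1.75 (adjusted p = 0.000591), and Lyz2, lysozyme, was higher at 1.02 (adjusted p = 0.0238), a call lost without J2 replicate 1 or INPUT replicate 1. All 15 megakaryocyte genes were tested, 0 were higher and 9 lower, with a median of -1.57, Gp1ba, a platelet adhesion receptor, at -2.89 (adjusted p = 0.00249). All 18 endothelial and stromal genes were tested, 0 were higher and 4 lower (22.2%), with a median of -0.88. Stab1, a scavenger receptor of liver sinusoids, was at -2.01 (adjusted p = 0.00295).

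**Figure D5:**
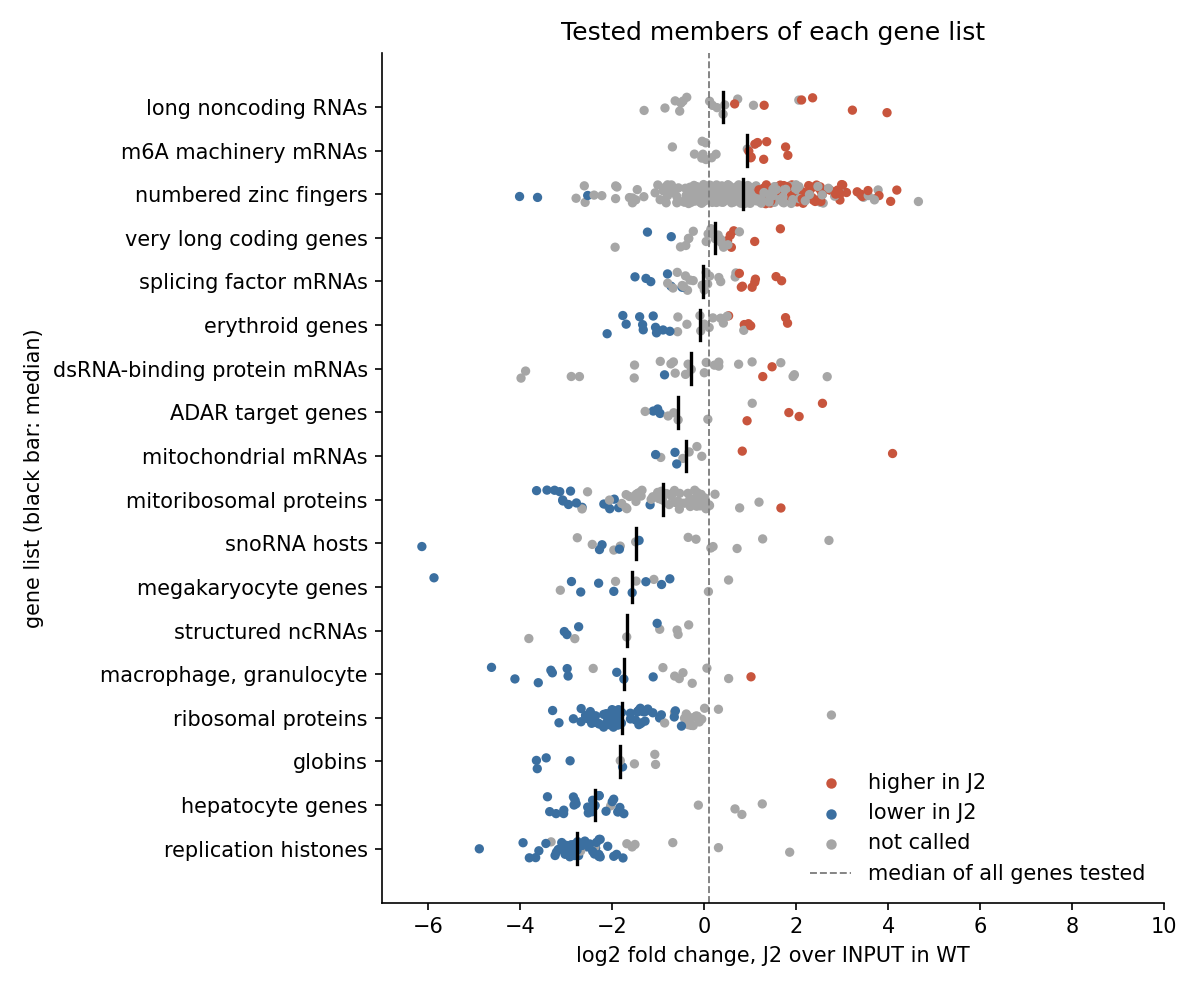
Log2 fold change J2 over INPUT of every tested member of each gene list, 1 point per gene, with genes absent from one group at their bound, red for higher, blue for lower and grey for not called, and a black bar at the list's median. Histone and hepatocyte genes sit left of the median of all genes (dashed), and m6A machinery and zinc finger genes right of it, while the medians of erythroid, splicing factor, dsRNA-binding protein and mitochondrial mRNAs change sign under library size alone.

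The most abundant locus in INPUT was Gm23935, annotated as a miRNA (start at chr16 position 11144125), with 229049 and 261680.0 CPM in INPUT and 29406 and 30862 CPM in J2 (log2 fold change -3.03, SE 0.09, adjusted p = 1.32e-08). In J2 replicate 1 H19 held a slightly larger share of counts (3.31% against 3.30%), and in J2 replicate 2 Gm26917, a locus overlapping ribosomal RNA repeats, did (3.86% against 3.16%). Gm24270, Gm24187 and Gm25911 kept nearly fixed proportions to Gm23935 in the 4 libraries (1.90%, 1.95%, 2.04% and 1.79% of its counts for Gm24270), which was noticed after the values were seen, and their log2 fold changes were -3.04, -3.05 and -2.99. Whether these loci share reads with near-identical copies is not given in the sources used here, so each is uncertain. Loci overlapping ribosomal RNA repeats took 14.8% and 15.0% of INPUT counts and 3.37% and 6.07% of J2 counts, and the 4 of 5 that were tested were all lower. Gm42418 was at 104724 and 117194 CPM in INPUT and 18663 and 21088 CPM in J2 (log2 fold change -2.48, SE 0.19, adjusted p = 1.18e-05). Gm26917 was at 69819 and 75284 CPM and 10918 and 37677 CPM (log2 fold change -1.58, SE 0.39, adjusted p = 0.0129), with J2 replicate 2 above replicate 1 and both below INPUT.

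Annotated miRNA loci are short hairpins, and 47 of 2196 were tested, 6 higher and 6 lower (12.8% each, near the 13.2% and 10.7% over all genes), with a median of -0.09 (0.34 under library size alone). With the replicate block 3 were higher and 7 lower. Hairpin sequences were found for 24 of them in RefSeq (GRCm38.p6). Mir144 and Mir451a come from 1 primary transcript made in red-cell precursors (starts at chr11 positions 78073005 and 78073170), and Mir3058 lies within Nudt4 on chromosome 10. Their hairpins are shown as RNA, 5′ to 3′, to give the length of each. Capitals mark the mature forms and not the paired bases.
Mir144: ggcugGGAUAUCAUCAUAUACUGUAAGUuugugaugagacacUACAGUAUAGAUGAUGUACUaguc
Mir451a: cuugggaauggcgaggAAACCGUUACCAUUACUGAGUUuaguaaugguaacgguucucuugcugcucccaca
Mir3058: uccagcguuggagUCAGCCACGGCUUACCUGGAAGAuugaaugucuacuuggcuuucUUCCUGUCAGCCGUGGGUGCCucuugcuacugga
The mature forms, with the seed (bases 2 to 8) in capitals, have different seeds.
miR-144-3p: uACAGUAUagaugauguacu
miR-451a: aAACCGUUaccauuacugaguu
miR-3058-5p: uCAGCCACggcuuaccuggaaga

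Counts at these loci cannot tell a hairpin from the longer transcript that contains it. Mir144 was at 17.4 and 41.7 CPM in INPUT and 62.2 and 84.4 CPM in J2, with both J2 libraries above INPUT, and was not called (log2 fold change 1.31, adjusted p = 0.0900) except with the replicate block (adjusted p = 0.0382), under library size alone or without INPUT replicate 2. Mir451a was at 25.9 and 6.13 CPM and 9.77 and 11.1 CPM, with the J2 values between the INPUT values, and was not called (log2 fold change -0.62, adjusted p = 0.496). Mir3058 had 3 counts in INPUT and 13.1 and 19.6 CPM in J2, a ratio of 27.1 with a counting interval from 9.09 to 133 (adjusted p = 0.0291, lost without either J2 library or INPUT replicate 1). Mir1931, inside Cdk17, and Mir1898 had no INPUT count and were at least 10.3-fold and 7.53-fold higher, and both calls were lost in all 4 fits that left out 1 library and with the replicate block (adjusted p = 0.0899 and 0.150). Of the 15 miRNA loci with at least 10 counts in both INPUT libraries, 0 were higher and 6 lower. Over all 9651 genes that met this condition 1532 were higher (15.9%) and 1545 lower. Their median was -0.15, against 0.10 over all genes tested, so the condition itself goes with lower values. The 6 lower miRNA loci include Gm23935, Gm24270, Gm24187 and Gm25911, whose counts kept nearly fixed proportions, so they may not be separate observations.

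The same comparison in KO liver called 4462 genes (30.4%), 2246 higher (15.3%) and 2216 lower (15.1%). Of the genes higher in WT, 1439 were also higher in KO (74.3% of the WT genes and 64.1% of the KO genes), and of those lower in WT, 1307 were also lower (83.5% and 59.0%). For the difference between WT and KO enrichment, the quasi-likelihood test of edgeR called 0 genes (0%) after adjustment, 1340 had an unadjusted p under 0.05 (9.14%), and DESeq2 called 75. The smallest adjusted p was 0.164, at mt-Rnr1. With the replicate block, which pairs the INPUT and J2 pieces of a liver, 10 genes were called: Actb, Apoa1, Malat1, mt-Co1, mt-Rnr1, mt-Rnr2, Rmrp, Rpl10-ps3, Rpph1 and Rps18-ps3.

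Levels in KO are given for several RNAs described above. Mettl3 itself was at 6.70 and 26.9 CPM in KO INPUT and 46.2 and 34.6 CPM in KO J2, so the INPUT values overlapped those of WT and both J2 values lay above both WT J2 values. Which exons are deleted is not given in the sources used here, and hepatocytes keep the gene, so these whole-gene counts do not check the labels. Malat1 was at 4567 and 4369 CPM in KO INPUT and 25717 and 25476 CPM in KO J2, a KO log2 fold change of 2.52 against 1.30 in WT (difference -1.22, SE 0.19, adjusted p = 0.256, 0.00123 with the replicate block). mt-Nd6 was at 119 and 124 CPM and 959 and 941 CPM in KO, a log2 fold change of 2.97 against 4.09 (difference 1.12, adjusted p = 0.298). mt-Rnr1 had a log2 fold change of -1.54 in KO against -0.56 (difference 0.97, SE 0.13, adjusted p = 0.164, 0.00131 with the replicate block). H19 had a log2 fold change of 2.35 in KO and 2.36 in WT (difference 0.01, SE 0.16, adjusted p = 1.00).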

How the data were processed

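Gene counts per sample were deposited by the authors as 1 table of raw read counts for the J2 and INPUT libraries of E14.5 liver. Per the submitters' processing notes, the series used the build GRCm38.p5 with edgeR, bedtools, STAR 2.5.3a and Bowtie2 2.2.9, among other tools, with no role given for each. The counting tool, annotation release, strand setting and treatment of duplicates are not given in the sources used here.

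Counts of the 8 J2 and INPUT libraries were fitted with edgeR 4.0.16 (R 4.3.3, limma 3.58.1): filterByExpr, TMM scaling, quasi-likelihood F test, 4 group means, Benjamini-Hochberg adjustment over 14657 genes, threshold 0.05. KO libraries entered to share 1 estimate of the spread (common biological coefficient of variation 0.454). Printed CPM are TMM-scaled. DESeq2 1.42.0 was an alternative. Tables and figures used pandas 2.3.3, scipy 1.17.1 and matplotlib 3.10.9. A gene at 0 in 1 group was given a bound from 3 counts over that group.

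Same-numbered INPUT and J2 libraries are pieces of 1 liver, per the labels' protocols; their deviations correlated at 0.128 (WT) and 0.012 (KO). The 2 replicates of a group are labelled as separate samples, and whether they came from 1 litter is not given in the sources used here. Tested on simulated counts for this comparison (13955 genes), the fit recovered 87% of 100 genes changed 8-fold and 7% of 100 changed 2-fold. There were 7 false calls. The changed genes were drawn from those with at least 10 CPM. They were 200 in all, far fewer than the 3503 called in the data, so recovery in the data can differ.

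The members and gene lists were chosen with earlier results of these data known. By rule 198 genes could be named. They held the 10 highest and lowest called genes with at least 10 CPM, and the 10 most abundant in each group. Per gene_biotype with at least 5 tested genes, the extreme called genes and the most abundant were taken. Each list gave its 3 most abundant genes and the 2 called extremes in each direction. Mettl3, tested miRNAs with a hairpin sequence and 5 antisense pairs were also taken. A rule for genes called between WT and KO added none, as none was called. Actb, Apoa1, Rpl10-ps3 and Rps18-ps3 are named only because the replicate block called them, and are not counted among the 217 named genes. Neat1, Xist, Col1a1, Hnf4a, Oip5, Optn, Copa, mt-Nd1, mt-Tt, mt-Ti, mt-Tv, Gm24270, Gm25911 and the intronic examples with their surrounding genes were added after their values were seen. Some genes are not reported here.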

Additional observations from a re-analysis of the deposited data

How the results depend on the processing

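The number of genes called in WT (3503) stayed within 1.5 times under RLE scaling, library size alone, DESeq2, other filters on low counts, the replicate block (1960 higher, 1542 lower), without mitochondrial and rRNA-overlap loci, and with the 4 WT libraries alone (1370 higher and 1198 lower of 12699; 1741 and 1516 with the block). Leaving out 1 library gave 1826 to 3591. Conditions chosen after seeing the data gave 1711 higher and 1481 lower of 9025 (mean of at least 10 CPM) and 1532 and 1545 of 9651 (at least 10 counts in both INPUT libraries). Genes called for WT minus KO enrichment numbered 0, against 3 (library size alone), 75 (DESeq2), 103 (no filter), 10 (replicate block) and 0 to 2 (1 library left out). The log2 ratio of shares was also taken outside mitochondrial and rRNA-overlap loci, which shrinks the denominator of every share. It was 0.35 for protein_coding (0.53 with them), 1.94 for lincRNA (-0.70), -2.77 for miRNA (-2.58) and -1.42 for processed_pseudogene (-1.23). It was 0.75 for antisense_RNA (0.94), 2.14 for TEC (2.33), 2.15 for sense_intronic (2.34) and -0.56 for snRNA (-0.37). For lincRNA the condition also removed Gm42418 and Gm26917, which held most of its INPUT counts. With 1 library left out and all loci kept, the log2 ratio was 0.51 to 0.56 for protein_coding, -0.36 to -0.29 for Mt_rRNA and -1.32 to -1.14 for processed_pseudogene. It was 0.88 to 1.00 for antisense_RNA, 2.18 to 2.48 for sense_intronic and -0.80 to 0.11 for snoRNA, which turned upward without J2 replicate 1. The cause was not tested. Of 217 named genes, 202 to 217 had a value under each setting, and no gene called in WT took the other sign. Among genes not called, 13 did under library size alone (Rn7sk, Apob, mt-Co1, mt-Nd1 and Rpl4 among them), 3 with the replicate block and 7 to 17 with 1 library left out. Meg3, Hnf4a, Rabgap1l, Akap13, Igf2os and Mir144 were called under library size alone. With the 4 WT libraries alone mt-Tp, Kcnq1ot1, Gm26917, Lyz2, Rplp0, Brip1, Kel, Picalm, Oip5, Optn and Mir1898 lost the call (adjusted p 0.0505 to 0.157). Of the named genes, 38 and 49 lost the call without J2 replicate 1 and 2, 24 and 26 without INPUT replicate 1 and 2, and 10 with the replicate block. In the simulation, where 200 genes were changed, 2-fold differences were rarely called. The data gave 3503 calls, so the share of 2-fold differences called there is not known. A gene not called is not shown to be unbound.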
